A study of Drosophila melanogaster with 12 samples.

Results

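The mRNAs described here encode a part of the nuclear subunits and assembly factors of the mitochondrial respiratory chain and of the ATP synthase. They were taken as the genes whose symbol in the platform annotation starts with ND- (complex I), Sdh (complex II), UQCR (complex III), COX (complex IV) or ATPsyn (ATP synthase), with 1 probe set per gene, that with the highest mean over the 12 arrays. This rule gave 73 of the 11981 genes that have a probe set of their own, namely 32 of complex I, 7 of complex II, 6 of complex III, 14 of complex IV and 14 of the ATP synthase. Genome-wide mRNA levels had been measured with Affymetrix Drosophila Genome 2.0 arrays in SL2 cells, a Drosophila melanogaster line of embryonic origin with properties of blood cells. The control group, GFP dsRNA, received double-stranded RNA (dsRNA) against the green fluorescent protein, which has no target in these cells. The Tis11 dsRNA group was knocked down (kd) for Tis11, an RNA-binding protein of the TTP family that promotes decay of mRNAs with AU-rich elements. Both dsRNAs were given at 12.5 µg/ml for 4 days, and the groups GFP dsRNA + LPS and Tis11 dsRNA + LPS were then exposed to 10 µg/ml lipopolysaccharide (LPS) for 4 hours. Each of the 4 groups holds 3 biological repeats, all of 1 cell line, and no group was left without dsRNA. Values are log2 signals after Robust Multi-array Analysis (RMA).

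In mitochondria, complex I takes electrons from NADH and complex II takes them from succinate, and both pass them to ubiquinone. Complex III hands the electrons on to cytochrome c and complex IV to oxygen. Complexes I, III and IV pump protons across the inner membrane, and the ATP synthase uses their return flow to turn its central stalk and make ATP. A part of the subunits is encoded in the mitochondrial genome and is not covered here. In flies, many nuclear subunits have a second gene copy, marked by an L in the symbol, and such copies are known for expression in the male germline.

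The arrays divided the 73 genes into those with clear signal and those near background. A mean below 6 over the 12 arrays was taken as near background, since 61.7% of all 18769 probe sets lie there. Of the 73 genes, 51 had a mean of at least 6, called clear signal from here on, and 22 a mean below 6. Of the 21 genes that their symbol marks as copies, 20 lay below 6, and the exception was ATPsynepsilonL at 6.28. Among the other 52 genes only ND-B8 (4.02) and UQCR-11 (4.75), both coding for small accessory subunits, were below 6. The defining genes of the male germline were low as well, with 9 of 10 markers below 6 and mia at 7.61. All 9 plasmatocyte markers, genes of the phagocytic fly blood cell, were above 6, whereas the 3 fat body and the 3 neuron markers were not. The markers of the other fly blood cells were mixed. Of the 4 crystal cell markers, the prophenoloxidases PPO1 (7.54) and PPO2 (9.55) were above 6 and the regulators lz (3.44) and peb (4.81) below. Of the 6 lamellocyte markers, PPO3 (8.63), mys (9.28), msn (10.03) and cher (10.48) were above 6, and ItgaPS4 (4.83) and atilla (5.07) below. Since these are bulk RNA samples, fewer cells of a type and less RNA per cell cannot be told apart. Tis11 itself, and with it the extent of its knockdown, was not analysed here, and kd stands for treatment with the dsRNA named.

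No gene of the respiratory chain or the ATP synthase passed the test in any of the 4 comparisons or in the interaction of Tis11 kd and LPS. In all 5 the lowest adjusted p among the 73 genes was 1 (limma, Benjamini-Hochberg over all probe sets). Over the whole array, 0% of the probe sets passed for Tis11 kd without LPS, 0% with LPS, 0.0533% for LPS in GFP kd cells, 0.0799% for LPS in Tis11 kd cells, and 0% in the interaction. At an unadjusted p under 0.05, these were 206, 488, 313, 508 and 373 of the 18769 probe sets tested. The highest count, 508 for LPS in Tis11 kd cells, was made up of 1.27% higher and 1.43% lower. All 5 counts lay below the share of 0.05 that such a test gives when no probe set differs. The fits were thus cautious on these data, for a reason that was not tested. Not passing the test does not show that a gene was unchanged. All 4 comparisons rest on 3 arrays against 3. What follows describes how large the differences were, which genes departed from the rest of their complex, and how the genes varied between the repeats.

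ATPsyndelta, which codes for a subunit of the central stalk of the ATP synthase, showed the largest difference of all 73 genes after Tis11 kd. In the GFP kd cells its log2 signals were 10.76, 10.54 and 10.30 in replicates 1 to 3, and in the Tis11 kd cells 10.82, 11.30 and 10.99. All 3 Tis11 kd arrays were above all 3 control arrays. The group means were 10.53 ± 0.23 and 11.04 ± 0.24 (SD, n = 3), a log2 difference of 0.50 with a standard error (SE) of 0.17, or 1.42-fold, with an unadjusted limma p of 0.0203 and an adjusted p of 1. In the LPS-treated cells, which are separate samples, the signals were 10.49, 10.68 and 10.21 in GFP kd cells and 10.92, 10.63 and 11.22 in Tis11 kd cells. Here the groups overlapped, because replicate 2 of the Tis11 dsRNA + LPS group lay below the highest control, replicate 2 of GFP dsRNA + LPS. Over the 51 genes with clear signal, the median deviation from the group mean was −0.28 on the former array and 0.25 on the latter. The part of this shared variation in the overlap was not tested. The difference was 0.46 (SE 0.19, unadjusted limma p 0.0519, adjusted p 1). LPS made little difference to ATPsyndelta, with −0.07 (SE 0.17) in GFP kd and −0.11 (SE 0.19) in Tis11 kd cells, and both changed sign when single arrays were left out (up to 0.05 and 0.03). ATPsyndelta was chosen with earlier results of these data known, so its rank among the 73 is a description only.

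**Figure D1:**
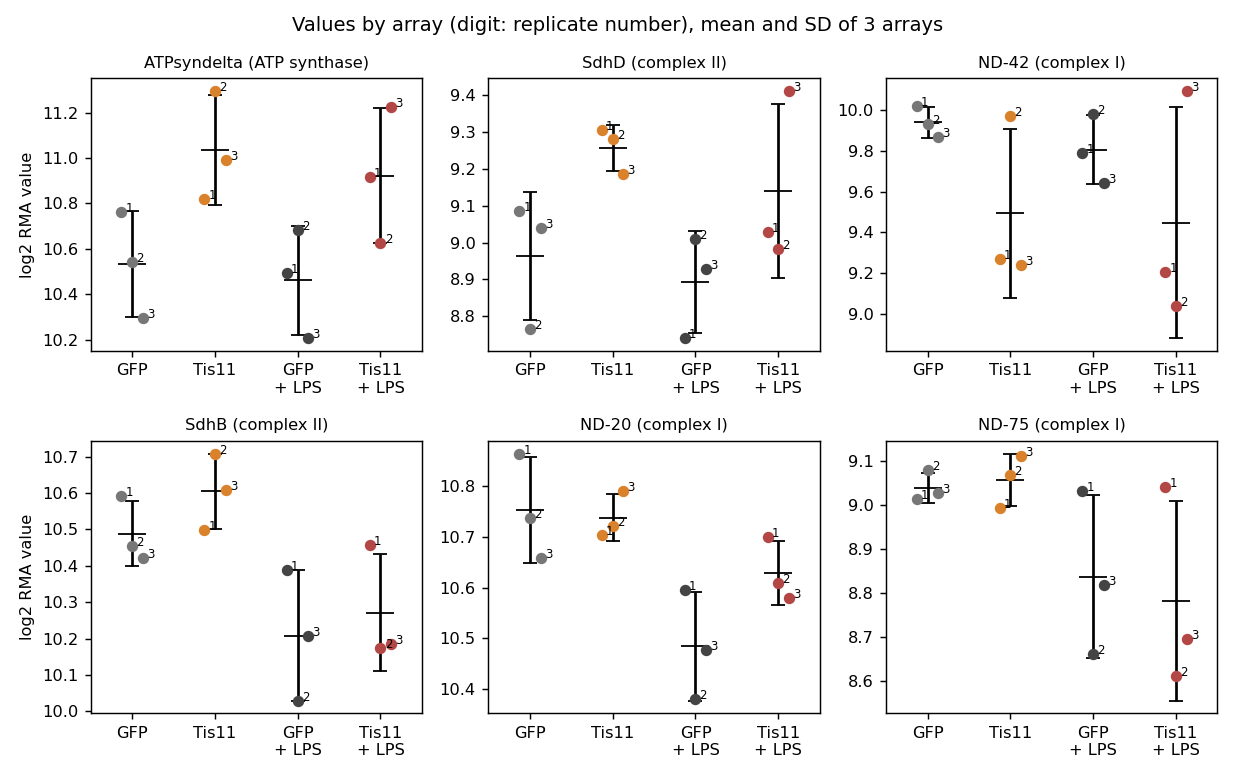
Log2 RMA signal of 6 genes on the 12 arrays, with 1 point per array (digits give the replicate number) and a bar for the mean ± SD of 3 arrays. The ATPsyndelta points of the Tis11 kd cells, 10.82 to 11.30, all lie above those of the GFP kd cells, 10.30 to 10.76, whereas 1 of the 3 ND-42 points of each Tis11 kd group lies at the level of the controls.

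No other ATP synthase subunit with clear signal came near this difference. The next highest was ATPsynbeta, the catalytic subunit, with 0.12 without LPS, and ATPsynCF6, a peripheral stalk subunit, with 0.15 with LPS. The signals of ATPsynbeta were 12.20, 12.17 and 11.86 in GFP kd and 12.04, 12.23 and 12.32 in Tis11 kd cells, so the groups overlapped (SE 0.13, unadjusted limma p 0.384). The difference was 0.01 without replicate 3 of GFP dsRNA, 0.06 without replicate 3 of Tis11 dsRNA and 0.20 without replicate 1 of the latter group. A second probe set of ATPsynbeta gave 0.25 without LPS and 0.02 with LPS. The median over the 11 ATP synthase genes with a mean of at least 6 was 0.03 without and 0.13 with LPS.

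Complex I contained the gene with the lowest difference after Tis11 kd, ND-42, which codes for an accessory subunit. Its signals were 10.02, 9.93 and 9.87 in GFP kd cells and 9.27, 9.97 and 9.24 in Tis11 kd cells. Replicates 1 and 3 of the Tis11 kd cells were low, while replicate 2 was as high as the controls. The difference was −0.45 (SE 0.20, unadjusted limma p 0.0627, adjusted p 1), and −0.68 without replicate 2 of the Tis11 dsRNA group. With LPS, the signals were 9.79, 9.98 and 9.64 in GFP kd and 9.21, 9.04 and 10.09 in Tis11 kd cells, again with 2 low arrays and 1 high array. The difference was −0.36 (SE 0.28, unadjusted limma p 0.25), −0.68 without replicate 3 of the Tis11 dsRNA + LPS group, −0.15 without its replicate 2 and −0.24 without its replicate 1. The other complex I genes with a mean of at least 6 went no lower than −0.08 (ND-MNLL) without LPS and −0.13 (ND-18) with LPS. ND-18 codes for a subunit near the NADH-oxidizing arm, and its signals were 8.80, 8.95 and 8.94 in GFP kd and 8.69, 8.68 and 8.92 in Tis11 kd cells treated with LPS, where the difference was −0.21 without replicate 3 of the latter.

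In complex II, SdhD, one of the pair of membrane anchors, also had separate groups after Tis11 kd. Its signals were 9.09, 8.76 and 9.04 in GFP kd cells and 9.30, 9.28 and 9.19 in Tis11 kd cells. The difference was 0.29 (SE 0.11, unadjusted limma p 0.0357, adjusted p 1), and 0.19 without replicate 2 of the GFP dsRNA group. With LPS the difference was 0.25 (SE 0.15, unadjusted limma p 0.145), and the groups overlapped. The signals were then 8.74, 9.01 and 8.93 in GFP kd and 9.03, 8.98 and 9.41 in Tis11 kd cells, where replicate 2 lay below the highest control. The other membrane anchor, SdhC, differed by −0.03 without LPS and by 0.25 with LPS, and the iron-sulfur subunit SdhB by 0.12 and 0.06. Without LPS, complexes III and IV held no such gene. The 10 of their genes with a mean of at least 6 ranged from −0.04 (UQCR-Q) to 0.08 (COX5B). With LPS these genes ranged from 0.09 (UQCR-Q) to 0.26 (COX7B), which reached the difference of SdhD, and the groups overlapped for each of them.

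Counted over all 73 genes, Tis11 kd without LPS separated the groups upwards for 2 genes (ATPsyndelta and SdhD, 2.74%) and downwards for 1 (the copy ATPsynGL, 1.37%). The corresponding shares of all probe sets were 2.58% and 1.89%, so the gene group did not stand out from the array. Only ATPsyndelta exceeded a log2 difference of 0.5, against 0.298% of all probe sets, and no gene lay under −0.5, against 0.107%. With LPS, the groups were separated upwards for 3 genes (ATPsynGL, SdhAL and UQCR-14L, 4.11%, all copies below 6) and downwards for none, against 7.77% and 1.97% of all probe sets. None of the 73 lay beyond 0.5 in either direction, against 0.0959% above and 0.517% below. The highest difference with LPS after that of ATPsyndelta belonged to ND-B14.5B, an accessory subunit of complex I, at 0.29 (SE 0.38), followed by ATPsynGL at 0.29 (SE 0.12). The difference of ND-B14.5B came from replicate 3 of the Tis11 kd cells. This array read 11.63 where replicates 1 and 2 read 10.36 and 10.31, and without it the difference was −0.14. COX7AL, a copy near background, followed ND-42 at the low end with −0.25 (SE 0.37) without and −0.32 (SE 0.41) with LPS. Replicate 3 of both control groups (4.86 and 5.27) lay well above the other controls (3.72 to 3.87), and without these arrays the differences were 0.12 and 0.16.

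As a group, the 51 genes with a mean of at least 6 were centred close to 0 after Tis11 kd without LPS. With LPS they lay above the median of all probe sets with clear signal. Without LPS their median difference was 0.02, and 34 of 51 were above 0 (66.7%), against a median of 0.01 and 55.5% above 0 among all probe sets with clear signal. With LPS the median was 0.10 with 45 of 51 above 0 (88.2%), against −0.08 and 26.8%. The complex medians with LPS were 0.06 for complex I, 0.15 for complex II, 0.11 for complex III, 0.12 for complex IV and 0.13 for the ATP synthase. These medians are small beside the spread between repeats. Per array, the median of the 51 genes, each centred on its mean over the 12 arrays, was 0.03 ± 0.24 in GFP kd, 0.06 ± 0.15 in Tis11 kd, −0.11 ± 0.25 in GFP kd with LPS and 0.02 ± 0.36 in Tis11 kd with LPS (SD, n = 3), and the groups overlapped. Replicate 3 of the Tis11 dsRNA + LPS group reached 0.42 while replicates 1 and 2 were at −0.11 and −0.25, and over all 73 genes the median difference with LPS, 0.09, was −0.06 without this array and 0.21 without replicate 2 of the same group. It was 0.02 when each array was centred on its median. These array medians lie below 6, among probe sets near background. Without LPS, the median over all 73 genes, 0.01, was −0.05 without replicate 2 of Tis11 dsRNA or without replicate 3 of GFP dsRNA and 0.13 without replicate 1 of GFP dsRNA.

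**Figure D2:**
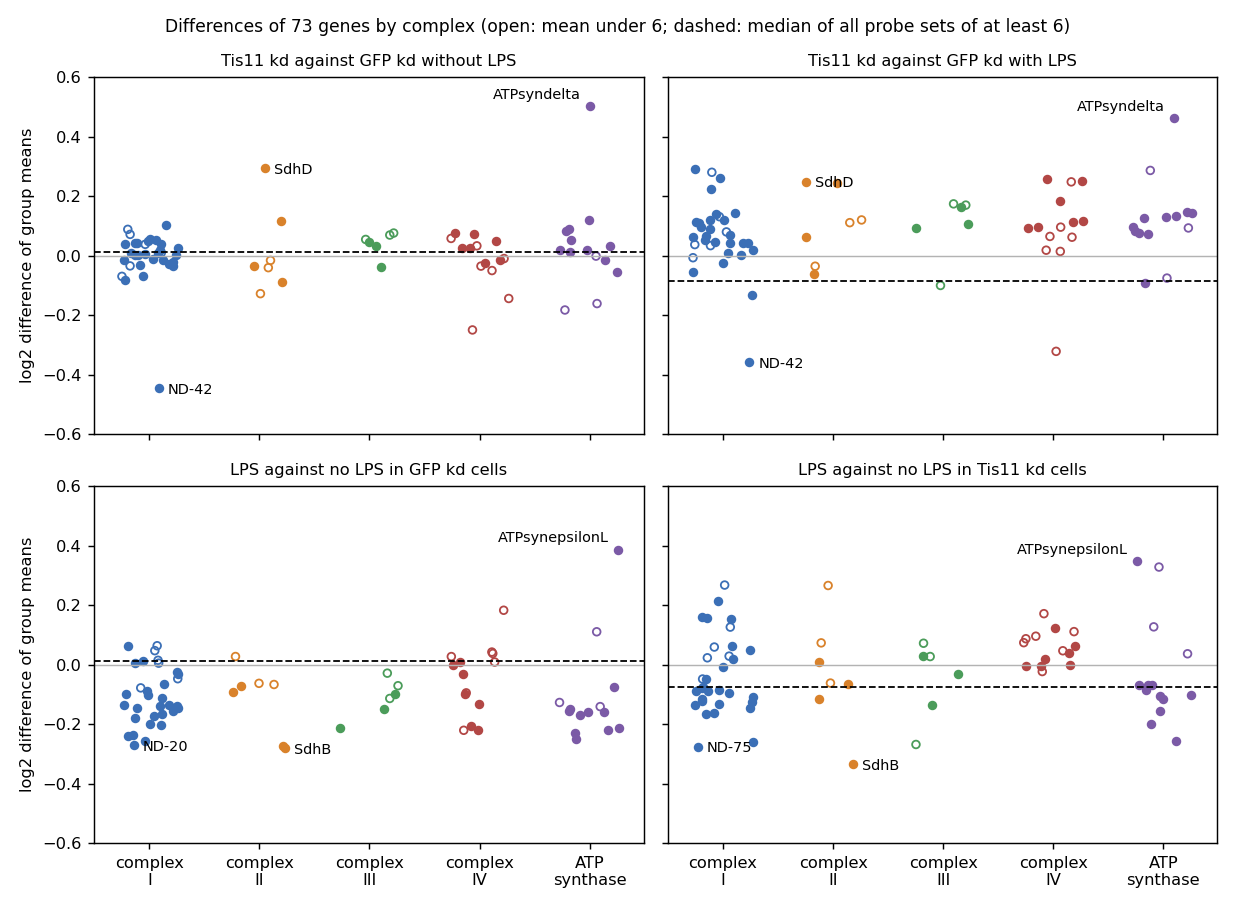
Log2 difference of group means for the 73 genes in the 4 comparisons, by complex, with filled points for genes with a mean of at least 6, open points for genes below 6 and a dashed line for the median of all probe sets with clear signal. ATPsyndelta at 0.50 and 0.46 and ND-42 at −0.45 and −0.36 lie apart from the other genes of their complex after Tis11 kd, and no point passed the test.

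The LPS comparisons asked whether the bacterial preparation altered these mRNAs within 4 hours. The lowest difference in both backgrounds was that of SdhB, the iron-sulfur subunit of complex II, which passes the electrons of succinate on. It read 10.59, 10.45 and 10.42 in GFP kd cells and 10.39, 10.03 and 10.21 after LPS. In Tis11 kd cells it read 10.50, 10.71 and 10.61 without LPS and 10.46, 10.17 and 10.18 after LPS. In both backgrounds every LPS array was below every untreated array, by −0.28 (SE 0.12, unadjusted limma p 0.0557) and −0.33 (SE 0.12, unadjusted limma p 0.0305), with an adjusted p of 1 in both. The 2 comparisons use separate arrays, and their difference, −0.05 (SE 0.17), did not pass the test of interaction.

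For ND-20, the complex I subunit with the last iron-sulfur cluster before ubiquinone, every LPS array was also below every untreated array in both backgrounds. It read 10.87, 10.74 and 10.66 in GFP kd cells and 10.60, 10.38 and 10.48 after LPS, a difference of −0.27 (SE 0.10, unadjusted limma p 0.0381, adjusted p 1). In Tis11 kd cells it read 10.70, 10.72 and 10.79, and 10.70, 10.61 and 10.58 after LPS, a difference of −0.11 (SE 0.10, unadjusted limma p 0.298) with separate groups by a narrow margin. ND-20 is read by a probe set of the type that may also bind other transcripts (ending in _s_at), as are 12 of the 73 genes. ND-75, the largest iron-sulfur subunit of complex I, read 9.01, 9.08 and 9.03 in GFP kd cells and 9.03, 8.66 and 8.82 after LPS, a difference of −0.20 (SE 0.12). In Tis11 kd cells it read 8.99, 9.07 and 9.11, and 9.04, 8.61 and 8.69 after LPS, a difference of −0.28 (SE 0.14, unadjusted limma p 0.0845). In both backgrounds replicate 1 stayed at the untreated level, so the groups overlapped.

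Altogether, LPS separated the groups downwards for 5 of 73 genes in GFP kd cells (SdhB, ND-20, ND-MNLL and the copies COX6CL and COX7AL2, 6.85%), against 4.34% of all probe sets, and upwards for none, against 2.15%. In Tis11 kd cells it did so downwards for 3 (SdhB, ND-20 and UQCR-11, 4.11%), against 3.33%, and upwards for 2 copies (ATPsynGL and SdhCL, 2.74%), against 5.04%. No gene exceeded 0.5 in either direction, against 1.15% of all probe sets above 0.5 and 0.373% below −0.5 in GFP kd cells, and 0.73% and 1.36% in Tis11 kd cells. The highest differences were those of ATPsynepsilonL, 0.39 (SE 0.34) and 0.35 (SE 0.38), a copy of the epsilon subunit gene. This gene varied widely, with 5.84, 7.10 and 6.59 in GFP kd and 5.83, 6.16 and 7.26 in Tis11 kd cells after LPS, and without replicate 3 of the latter group the difference was −0.07. In GFP kd cells the difference was 0.09 without replicate 2 and 0.72 without replicate 1 of GFP dsRNA + LPS. SdhC, at −0.27 (SE 0.20) in GFP kd cells, rested on replicate 1 of the untreated cells (11.09, against 10.52 and 10.46), without which it was −0.07, and it was −0.16 without replicate 3 of GFP dsRNA + LPS. The remaining genes named by rank were copies or near background, with 0.18 (SE 0.49) for COX7AL and 0.11 for ATPsynCF6L in GFP kd cells, and 0.33 for ATPsynGL, 0.27 for ND-B14.5AL and −0.27 for UQCR-11 in Tis11 kd cells. Among these, ATPsynCF6L was at 0.013 without replicate 1 and 0.19 without replicate 2 of GFP dsRNA, ND-B14.5AL at 0.15 without replicate 1 of Tis11 dsRNA, and COX7AL changed sign without replicate 1 of GFP dsRNA (−0.015) or replicate 3 of GFP dsRNA + LPS (−0.30).

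The median of the 51 genes was −0.15 for LPS in GFP kd cells, with 6 of 51 above 0 (11.8%), and −0.08 in Tis11 kd cells, with 14 of 51 above 0 (27.5%). All probe sets with clear signal had medians of 0.01 and −0.08, with 53.6% and 32.7% above 0. By complex, the median in GFP kd cells was −0.14 for complex I, −0.18 for complex II, −0.15 for complex III, −0.10 for complex IV and −0.16 for the ATP synthase. Complex IV in Tis11 kd cells was at 0.02 and the ATP synthase at −0.10. These differences too are smaller than the SDs between repeats given above, and no test was made on the medians. Over all 73 genes the median in GFP kd cells was −0.11, and −0.01 without replicate 1 of GFP dsRNA. For Tis11 kd cells it was −0.02, with −0.21 without replicate 3, 0.04 without replicate 1 and 0.07 without replicate 2 of Tis11 dsRNA + LPS. The interaction had a median of 0.07 over the 73 genes, and −0.07 without replicate 3 of Tis11 dsRNA + LPS. It was −0.02 when the arrays were centred on their medians, which lie near background.

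The repeats of a group differed from each other by more than the group means did, and in a shared way. For each gene the deviation of an array from the mean of its group was taken. Over the 51 genes, the median deviation was 0.29, −0.10 and −0.17 on replicates 1 to 3 of GFP dsRNA, and −0.15, 0.17 and −0.04 of Tis11 dsRNA. It was −0.04, 0.25 and −0.22 on the arrays of GFP dsRNA + LPS, and −0.12, −0.28 and 0.40 on those of Tis11 dsRNA + LPS. On the highest array of each group, which were replicates 1, 2, 2 and 3, there were 47, 46, 46 and 47 of the 51 genes above their group mean. The median over all probe sets with clear signal stayed between −0.06 and 0.07 on the 12 arrays. The replicate numbers of the high arrays differ between the groups.

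**Figure D3:**
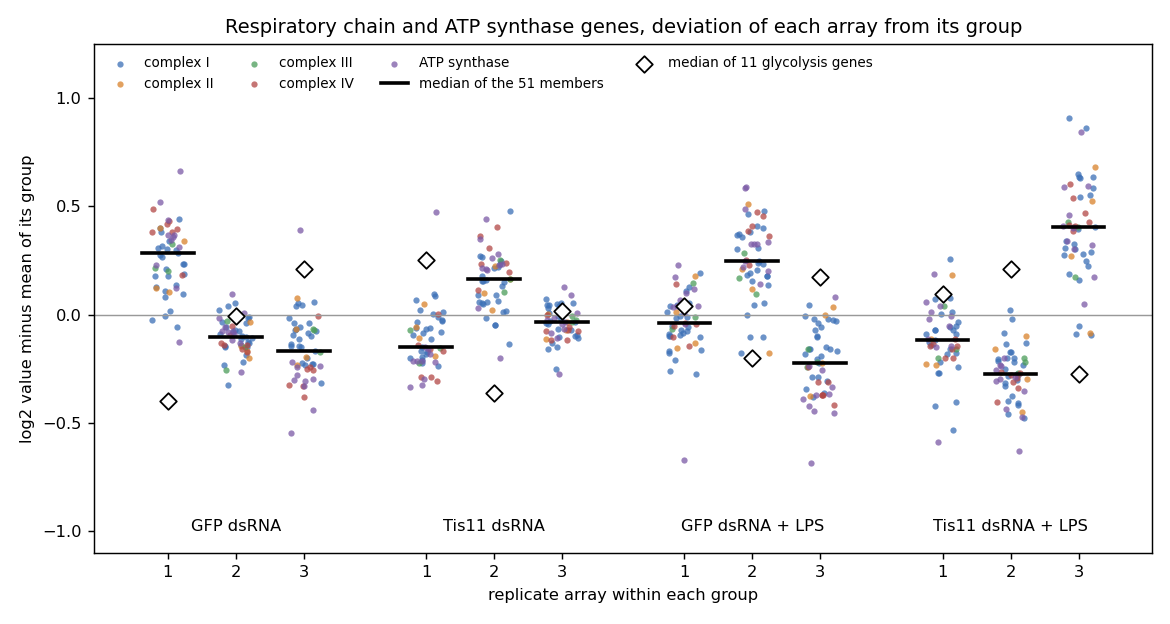
Deviation of the 51 genes with a mean of at least 6 from their group mean (log2) on each array, with 1 point per gene coloured by complex, a line for their median and a diamond for the median of 11 glycolysis genes. The line is high on replicate 1 of GFP dsRNA (0.29), 2 of Tis11 dsRNA (0.17), 2 of GFP dsRNA + LPS (0.25) and 3 of Tis11 dsRNA + LPS (0.40), and on these 4 arrays the diamond lies below 0.

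Genes of all 5 complexes took part, though the genes described here are not whole complexes. On replicate 3 of Tis11 dsRNA + LPS, the median deviation was 0.33 for complex I, 0.40 for complexes II and III, 0.43 for complex IV and 0.40 for the ATP synthase. The median Pearson correlation between the deviations of 2 genes over the 12 arrays was 0.83 among the 51 genes, and 54.3% of their 1275 pairs were above 0.8. Among all probe sets with clear signal the median was 0.04, with 9.42% of pairs above 0.8. Within the complexes the median was 0.95 for complex IV, 0.95 for the ATP synthase, 0.80 for complex III (3 genes) and 0.79 for complex I. It was lower, 0.36, for the 4 genes of complex II, with 16.7% of their pairs above 0.8. The 22 genes below 6 had a median of 0.09. These correlations are a description without a test, since the genes share the same 12 arrays and their normalization, and the 3 deviations of a group sum to 0.

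Single genes show the size of this variation. ATPsynC, which codes for the ring that turns in the membrane, had the largest pooled SD within groups of the ATP synthase genes, 0.58, and read 12.41, 11.63 and 11.20 in GFP kd cells. In the other groups it read 11.50, 12.28 and 11.73 (Tis11 kd), 11.70, 12.18 and 10.91 (GFP kd with LPS) and 11.72, 11.05 and 12.27 (Tis11 kd with LPS). The high array of each group was thus the same as for the median of all 51 genes. In complex I the accessory subunit ND-B14.5A spread most (pooled SD 0.47), with 8.84, 8.99 and 10.28 in Tis11 kd cells with LPS and 9.66, 8.96 and 9.22 in GFP kd cells. Sdhaf3, an assembly factor of complex II, had a pooled SD of 0.41 and read 6.92, 7.56 and 6.67 in GFP kd and 6.76, 6.54 and 7.67 in Tis11 kd cells with LPS. UQCR-Q of complex III had a pooled SD of 0.28 and read 8.83, 8.24 and 8.43 in GFP kd cells. The largest pooled SD of complex IV was that of COX7AL (0.61), which is near background and whose deviations had an r of −0.62 with those of the others. In each complex other than I, the gene with the smallest pooled SD was a copy near background, namely SdhAL (0.10), UQCR-14L (0.07), COX6CL (0.11) and ATPsynCF6L (0.10).

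Not all genes followed. The deviations of each gene were compared with the median of the other 50. Of the 51 genes, 40 had an r above 0.8, and the median r was 0.94. The 4 genes below 0 were ND-ACP (−0.67), ND-75 (−0.21), SdhB (−0.01) and ND-20 (−0.01). ND-ACP codes for the mitochondrial acyl carrier protein, which also serves fatty acid and iron-sulfur cluster synthesis, and the other 3 code for subunits with iron-sulfur clusters. All 4 were among the steadier genes, with pooled SDs of 0.08, 0.15, 0.14 and 0.08, against a median of 0.30 over the 51. ND-ACP had the smallest pooled SD of complex I, with 11.11, 11.19 and 11.21 in GFP kd and 11.18, 11.13 and 11.22 in Tis11 kd cells. After LPS it read 11.14, 10.91 and 10.99, and 11.13, 11.08 and 10.96. Genes of this kind were not all apart, as ND-51, which binds NADH and carries an iron-sulfur cluster as well, had an r of 0.74. The catalytic subunit gene ATPsynbeta had one of 0.54.

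**Figure D4:**
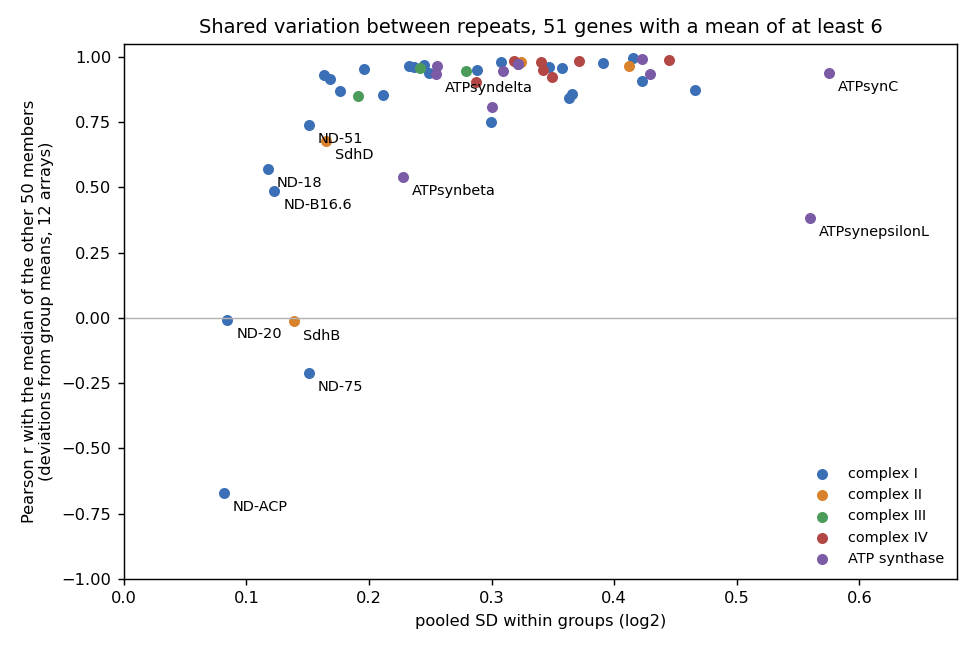
Pearson r between the deviations of a gene and the median of the other 50 genes over the 12 arrays, against the pooled SD of the gene within groups (log2), for the 51 genes with a mean of at least 6. Most genes lie above 0.8, and ND-ACP, ND-75, SdhB and ND-20 lie below 0 with pooled SDs of 0.08 to 0.15.

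Other gene lists were set beside these. Of 12 further subunits and assembly factors without the symbol prefixes, such as blw, the alpha subunit of the ATP synthase, and the Rieske protein RFeSP, 12, 10, 12 and 12 were above their group mean on the 4 high arrays, with medians of 0.28, 0.20, 0.36 and 0.45. The 69 mitochondrial ribosomal protein genes were high on the same arrays (0.18, 0.05, 0.35 and 0.42), whereas the 37 cytosolic ribosomal protein genes with a mean of at least 6 stayed between −0.02 and 0.03 on all 12. The proteasome subunit genes had medians of 0.07, −0.04, 0.11 and 0.25. The 11 glycolysis genes were low, with −0.40, −0.36, −0.20 and −0.27, and only 1, 1, 2 and 1 of them were above their group mean. The 13 matched genes of the list for the TCA cycle and pyruvate dehydrogenase, among them Mdh1, Idh and PCB, had −0.13, −0.05, −0.10 and −0.10. Others of this list, such as kdn, Fum1 and Mdh2, were not matched. The plasmatocyte markers had 0.18, 0.19, 0.29 and 0.22, and the 4 crystal cell markers −0.14, −0.02, 0.81 and 0.91, with lz and peb near background. The 6 lamellocyte markers had −0.04, −0.06, −0.44 and −0.51, with 2, 2, 0 and 2 above their group mean. The part of these cell types in the shared variation was not tested. No gene of the lists of carriers and porin (9 genes), mitochondrial chaperones and proteases (7), regulators of mitochondrial genes (8), glycolysis, the TCA cycle or further subunits passed in any comparison.

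The control probe sets of the arrays varied too. The bacterial bioB transcript, added before hybridization, read 9.27 on replicate 3 of Tis11 dsRNA + LPS and 8.31 on replicate 2 of GFP dsRNA + LPS, but between 7.16 and 7.76 on the other 10 arrays, including the high arrays of both groups without LPS. For the added poly(A) transcript lys, the 3′ minus 5′ signal was −0.06, 0.10, 0.78 and 0.46 on the 4 high arrays and 0.66 to 1.42 on the others. For the endogenous GAPDH control it was 0.28, 0.46, 0.45 and 0.29 on the high arrays and 0.50 to 0.66 on the others. The other endogenous controls did not follow GAPDH, with 0.50, 0.46, 0.68 and 0.75 on the high arrays for actin (0.43 to 0.62 on the others) and 0.24, 0.11, 0.42 and 0.67 for eIF-4a (0.11 to 0.31 on the others). Over the 12 arrays, the deviations of these 3′ minus 5′ signals were also correlated with those of the respiratory chain and ATP synthase genes. The r was −0.92 for GAPDH, −0.73 for lys, 0.40 for actin and 0.57 for eIF-4a. For dap, a further control of this kind, it was −0.50, and for the signals of the hybridization controls bioB and cre 0.60 and 0.49. The part of labelling, hybridization or RNA quality in the shared variation was not tested.

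Since the genes of a complex moved together between arrays, each gene was also expressed relative to the median of the other genes of its complex on the same array, a choice made after the data were seen. The median pooled SD of the 51 genes was then 0.13 in place of 0.30, and it was smaller for 42 of them. ATPsyndelta lay at −0.99, −0.75 and −0.75 in GFP kd and at −0.31, −0.33 and −0.40 in Tis11 kd cells, a difference of 0.48. With LPS it lay at −0.75, −0.86 and −0.54 in GFP kd and at −0.32, −0.33 and −0.51 in Tis11 kd cells, a difference of 0.33. In both comparisons all 3 Tis11 kd arrays were above all 3 controls, and ATPsyndelta had the highest difference of the 51 genes. The median size of the difference over the 51 genes was 0.05 in both.

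ND-42 lay at −0.29, 0.05 and 0.01 relative to the other complex I genes in GFP kd cells and at −0.68, −0.23 and −0.74 in Tis11 kd cells. The difference was −0.47, and replicate 2 of the Tis11 kd cells overlapped with the lowest control. With LPS it lay at 0.00, −0.05 and 0.02 in GFP kd cells and at −0.57, −0.62 and −0.18 in Tis11 kd cells, a difference of −0.45 without overlap. ND-42 was the lowest of the 51 genes in both comparisons. On this measure the groups were separated upwards for 1 of the 51 genes in each comparison. Downwards they were separated for 0 without LPS and for 1 with LPS. ATPsyndelta and ND-42 were already the extremes of the differences as measured, and this measure has no counterpart over all probe sets. SdhB was the lowest after LPS, with −0.21 and −0.22, but on this measure its groups overlapped in both backgrounds, and only 3 other complex II genes with clear signal served as its reference. These relative values are given as a description without a test.

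**Figure D5:**
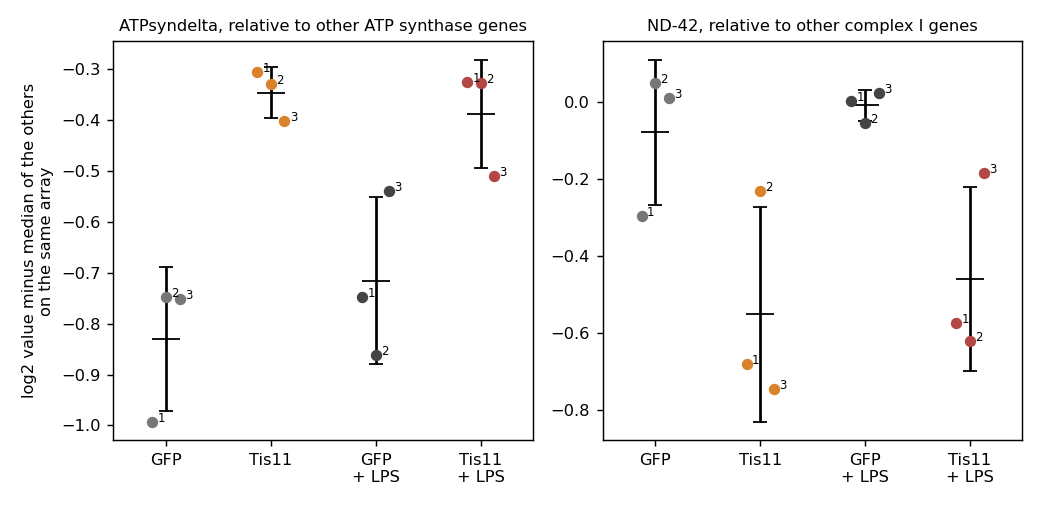
Log2 signal of ATPsyndelta and ND-42 minus the median of the other genes of the same complex on the same array, with 1 point per array (digits give the replicate number) and the mean ± SD of 3 arrays. ATPsyndelta lies between −0.51 and −0.31 in the Tis11 kd groups and between −0.99 and −0.54 in the GFP kd groups, and ND-42 lies lower in both Tis11 kd groups, with an overlap in the cells without LPS.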

How the data were processed

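SL2 cells were profiled in 4 groups of 3 arrays. The authors normalized the arrays with RMA, and the deposited values are log2 signals for 18952 probe sets. Whether the 12 arrays were normalized together, and the genome build, are not given in the sources used here. Quantile normalization within RMA hides changes shared by most transcripts, and low signals are compressed. Here 183 control probe sets were left out, and 18769 were tested with limma 3.58.1 in R 4.3.3 (lmFit, eBayes, two-sided, Benjamini-Hochberg, adjusted p under 0.05), separately on the 6 arrays of each comparison and for the interaction on all 12. The fit was tested on simulated data with independent noise, which lack the shared variation between repeats seen here. The p-values measure the spread between 3 repeats, and no exact permutation test of 3 against 3 can go below 0.1. Array medians lay between 5.05 and 5.22, and the number of arrays limits the precision. Gene names came from GEO's table for the platform, where 13646 probe sets had 1 gene, 402 several and 4721 none. COX6B, ATPsynG and ND-AGGG match the prefixes only through probe sets of several genes and were left out. Signal levels of different probe sets were compared only in choosing 1 probe set per gene, through the cut at 6, and in the values relative to a complex. Genes named were ATPsyndelta, the 3 highest and 3 lowest differences of each comparison, and those with the largest and smallest spread in each complex. The members and lists were chosen with earlier results of these data known. The alternatives were all arrays in 1 fit, the replicate number as a block, an intensity trend, centring, renewed quantile normalization, a filter at 6, the mean of all probe sets of a gene, members without copies, a threshold of 1, the methods' t-test and leaving out each array. Promoter motifs were not searched.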

Additional observations from a re-analysis of the deposited data

Results flagged for a closer look

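ATPsynGL, a copy of the gene for the membrane subunit g of the ATP synthase, stood apart because its arrays moved in opposite directions after Tis11 kd. Without LPS it read 5.21, 5.16 and 5.08 in GFP kd and 4.76, 5.07 and 5.07 in Tis11 kd cells, so all Tis11 kd arrays were below the controls (difference −0.18, SE 0.11, and −0.08 without replicate 1 of Tis11 dsRNA). With LPS it read 5.13, 4.89 and 4.99 in GFP kd and 5.15, 5.35 and 5.39 in Tis11 kd cells, so all Tis11 kd arrays were above the controls (difference 0.29, SE 0.12). The interaction was 0.47 (SE 0.16) with an unadjusted limma p of 0.0136 and an adjusted p of 1, and did not pass. All 12 signals lie near background, the mean being 5.10.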

How the results depend on the processing

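No gene of the respiratory chain or the ATP synthase passed the test in any comparison under any alternative that gives a test. For the named differences, 344 values under the alternatives kept their direction and their side of the test's threshold on the adjusted p, and 11 changed sign. Relative to the other ATP synthase genes, the LPS difference of ATPsyndelta in GFP kd cells was 0.11 instead of −0.07. With single arrays left out, the differences that changed sign ranged from −0.54 to 0.12 (COX7AL) after Tis11 kd without LPS, from −0.59 to 0.16 (COX7AL) and −0.14 to 0.52 (ND-B14.5B) with LPS, from −0.30 to 0.55 (COX7AL) and −0.19 to 0.054 (ATPsyndelta) for LPS in GFP kd cells, and from −0.26 to 0.034 (ATPsyndelta) and −0.074 to 0.64 (ATPsynepsilonL) for LPS in Tis11 kd cells. For ATPsyndelta after Tis11 kd the range was 0.37 to 0.62 without and 0.31 to 0.61 with LPS.

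The medians of all members, with single arrays left out, ranged from −0.05 to 0.13 (Tis11 kd), −0.06 to 0.21 (with LPS), −0.21 to −0.01 (LPS, GFP kd cells), −0.21 to 0.07 (LPS, Tis11 kd cells) and −0.07 to 0.18 (interaction). The members beyond 0.5 numbered 0 to 2 in the first 3 comparisons and 0 to 1 in the last, and with a threshold of 1 the count without LPS was 0 instead of 1. Over the whole array, the probe sets that passed for LPS in GFP kd cells numbered 0 (without GFP dsRNA replicate 2) to 14, and 1 by the methods' t-test, instead of 10. In Tis11 kd cells they numbered 6 (without Tis11 dsRNA replicate 1 or 3) to 26 (without Tis11 dsRNA + LPS replicate 3), and 0 by the methods' t-test (672 at an unadjusted p under 0.05), instead of 15.

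The replicate numbers did not pair the samples. Only 3 of 18 pairs with the same number had deviations that correlated above 0.1 (range −0.76 to 0.82), and 0 of 12 arrays correlated best with their own number. Over all probe sets, the arrays correlated in sets with 1 array of every group. With the groups in the order used above, the high arrays (replicates 1, 2, 2 and 3) formed such a set, with r of 0.42 to 0.855. In the same order, r was 0.523 to 0.835 among replicates 3, 1, 3 and 2. Among replicates 2, 3, 1 and 1 it was 0.403 to 0.718. For replicates 1 of GFP dsRNA and 2 of Tis11 dsRNA r was 0.855, and for 3 and 1 it was 0.835. With LPS, r was 0.816 for replicates 2 and 3 of these dsRNAs and 0.826 for 3 and 2. Pairs from different sets had an r of 0.123 at most, and for replicates 3 of GFP dsRNA and 2 of Tis11 dsRNA it was −0.749. The sample labels give no such sets or pairs, and these correlations were not used to pair arrays in any fit. With the replicate number as a block, 13 probe sets passed after LPS in GFP kd cells and 4 in those with Tis11 kd, and 0 members in every comparison.

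With 3 arrays a group and SDs of about 0.30 between repeats, a difference of the size of that of ATPsyndelta did not pass in these fits, which do not pair the arrays. Genes below 6 give little information on changes.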
